A study of Mus musculus with 10 samples.

Results

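Transcripts of 33 genes shared by macrophages, monocytes and other leukocytes were measured in the livers of female mice that lacked Etnppl in the whole body (KO) and of wild-type females (WT). All mice ate chow for 20 weeks, and snap-frozen liver gave 5 libraries of poly-A RNA in either genotype. The genes were listed by name as general myeloid and leukocyte genes that do not mark Kupffer cells in particular. Earlier results of these data were known when the list was made. Each gene was matched to the deposited table by its symbol. The 33 symbols matched 34 of the 47702 entries of the table, because Itgam was listed at 2 gene identifiers. One of these (ENSMUSG00000108596) held 0 to 0.04 FPKM in every library, and the other (ENSMUSG00000030786) was used. Of the 33 genes, 31 had a mean of at least 0.5 FPKM over the 10 libraries and were tested among 12247 genes. The chemokine receptor genes Ccr2 and Cx3cr1 lay under that level.

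FPKM divides the fragments of a gene by its transcript length and by the total of the library. It is a level per transcript length, so levels of different genes can be set side by side. Differences between genotypes are given as KO minus WT on the scale of log2(FPKM + 0.5), with the standard error (SE) and the Benjamini-Hochberg adjusted p of limma over all tested genes. A gene is called lower or higher where that adjusted p is under 0.05. The labels do not say that each sample was a single animal, so the p-values describe only the variation among these 10 samples, which may be technical. The knockout is a whole-body one, and the labels give no cell type in which Etnppl acts. Etnppl itself stood at 60.27, 69.73, 108.39, 47.24 and 43.32 FPKM in WT 1 to WT 5 and at 26.43, 21.97, 18.88, 25.74 and 17.72 FPKM in KO 1 to KO 5, so each KO library lay below each WT library without reaching 0 (log2 difference -1.49, limma adjusted p = 0.00504).

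Myeloid cells take up and digest particles, sense antibody-coated material through Fc receptors and kill microbes with oxidants made by a phagocyte NADPH oxidase. In the liver most resident macrophages are Kupffer cells, which sit in the sinusoids and clear particles and dying cells from portal blood, while monocytes, neutrophils and lymphocytes pass through or patrol. Spi1 encodes PU.1, the transcription factor on which myeloid development depends, and it binds purine-rich sites with a GAGGAA core in many myeloid genes. Whole liver is mostly hepatocyte RNA by mass, so transcripts of leukocytes are a small share of each library. In such bulk RNA, fewer cells of a type and less RNA per cell cannot be told apart.

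Promoter sequence is shown for Fcgr3 and Mertk, 2 of the genes called lower in KO, and for Fcgr4, the neighbour of Fcgr3, which holds the same PU.1 core and was not called. Sequences are RefSeq promoters of GRCm38.p6, written 5′ to 3′ on the strand of the gene, without bases in annotated exons, and capitals mark GAGGAA or its reverse complement TTCCTC.

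Fcgr3, chr1:171059404-171059626, minus strand: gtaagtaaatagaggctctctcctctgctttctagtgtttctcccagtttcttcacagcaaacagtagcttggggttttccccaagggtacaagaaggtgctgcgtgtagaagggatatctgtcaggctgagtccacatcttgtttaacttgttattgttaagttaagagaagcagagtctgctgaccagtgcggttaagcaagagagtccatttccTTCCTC

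Fcgr4, chr1:171018676-171018919, plus strand: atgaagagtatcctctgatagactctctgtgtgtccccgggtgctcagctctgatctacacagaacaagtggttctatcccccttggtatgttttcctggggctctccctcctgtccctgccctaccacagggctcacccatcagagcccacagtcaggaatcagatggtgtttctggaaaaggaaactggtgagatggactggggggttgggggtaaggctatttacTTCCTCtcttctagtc

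Mertk, chr2:128698665-128698914, plus strand: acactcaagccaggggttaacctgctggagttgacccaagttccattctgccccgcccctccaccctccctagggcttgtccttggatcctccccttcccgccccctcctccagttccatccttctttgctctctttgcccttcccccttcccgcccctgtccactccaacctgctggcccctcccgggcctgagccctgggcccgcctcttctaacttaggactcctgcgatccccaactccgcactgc

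The core lay 6 bases before the RefSeq start of Fcgr3 and 22 bases before that of Fcgr4, in the reverse orientation in both. In Mertk the 250 bases before the start did not hold these letters. The RefSeq start of Fcgr3 falls inside the longer GENCODE model of the gene (chr1:171051174-171064935), so its window is upstream of that transcript and not of the whole gene. A RefSeq promoter was at hand for 24 of the 33 genes. The core was in the 250 bases before the start, on either strand, in 12 of the 24 (50.0%), against 23.1% of 27025 genes with an entry. The longer form GAGGAAGT or ACTTCCTC, which contains the core, was in 1 of 24 (4.17%, Fcgr4) against 2.44% of all. Among the 3 called genes, Fcgr3 and Laptm5 held the core and Mertk did not. In Laptm5 it lay 38 bases before the RefSeq start, within an annotated exon, and that window is not shown. A match of these letters is a description of the window and not a measured binding site.

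Of the 31 tested genes, 3 were lower in KO, 0 were higher and 28 were not called. The 3 were Mertk, an engulfment receptor for dying cells, Laptm5, a lysosomal membrane protein of leukocytes, and Fcgr3, a low-affinity receptor for IgG. Their KO means were 76.8%, 75.2% and 69.2% of the WT means. The share called lower was 9.68% of the 31, beside 4.56% of all tested genes. Of all tested genes 3.98% were called higher. At an unadjusted limma p under 0.05, 12 of the 31 were lower (38.7%) and 0 higher, beside 13.6% of all tested genes that were lower and 11.0% that were higher. A further count needs no model. Every KO library lay below every WT library for Mertk, Laptm5 and Mrc1, 3 of 31 (9.68%), beside 4.78% of all tested genes. Every KO library lay above every WT library for 0 of the 31, beside 4.08% of all tested genes. Because the list was made with earlier results of these data known, these shares describe it and do not test it.

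Most of the remaining differences were small and of the same sign. The difference was negative in 26 of 31 genes (83.9%), beside 54.3% of all tested genes, and positive in Msr1, Ncf4, Itgam, Coro1a and Lcp1. The median was -0.18 over the 31 genes and -0.02 over all tested genes, and single genes ran from -0.50 in Fcgr3 to 0.18 in Ncf4. The list was not independent of these data. Its genes also vary together across libraries, as described for each library below. Neither these 26 negative signs nor the counts above are therefore separate observations.

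**Figure D1:**
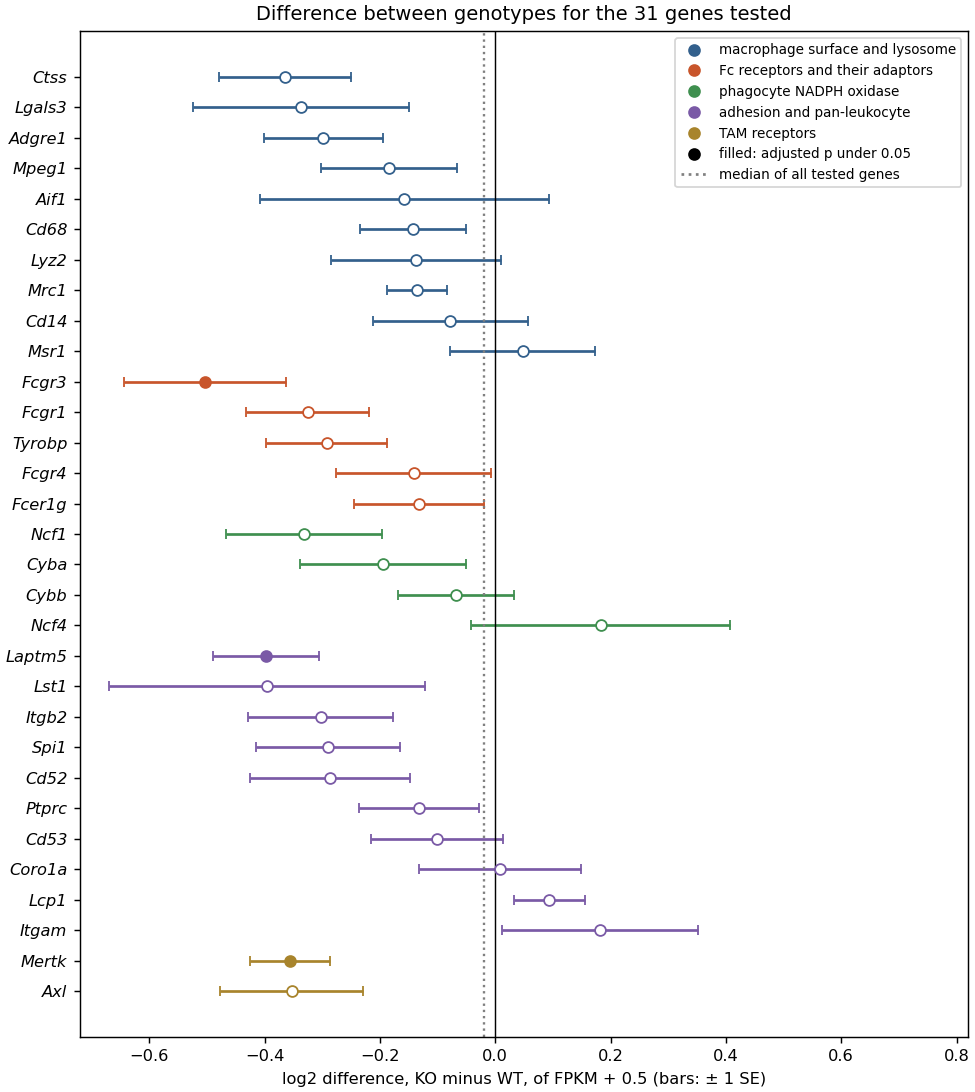
Log2 difference of FPKM + 0.5 between genotypes (KO minus WT, bars ± 1 SE, 5 libraries each) for the 31 tested genes, coloured by role, with filled points for limma adjusted p under 0.05. Mertk, Laptm5 and Fcgr3 are filled, and 26 of 31 points lie left of 0, while the dotted line marks the median of all tested genes at -0.02.

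Levels spanned from Lyz2, which encodes the macrophage lysozyme, to Cx3cr1, the fractalkine receptor gene. Over the 10 libraries Lyz2 averaged 55.9 FPKM, the actin-bundling gene Lcp1 36.2 FPKM and the lysosomal protease gene Ctss 21.5 FPKM. At the other end Itgam averaged 0.759 FPKM, Ccr2 0.283 FPKM and Cx3cr1 0.143 FPKM. The ranges of neighbouring genes in this order overlapped in 31 of 32 pairs. The exception was Lcp1 (31.85 to 40.07 FPKM) above Ctss (14.94 to 28.68 FPKM). Such ranges do not compare the genes of a pair within a library. Lyz2 was above Lcp1 in each library, most closely in KO 5 (39.60 against 34.52 FPKM), and Itgam was above Ccr2 in each. The order within libraries is not reported for the other overlapping pairs. Called genes lay in the upper part of this order of 33 genes, with Laptm5 at place 8, Fcgr3 at 11 and Mertk at 12.

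**Figure D2:**
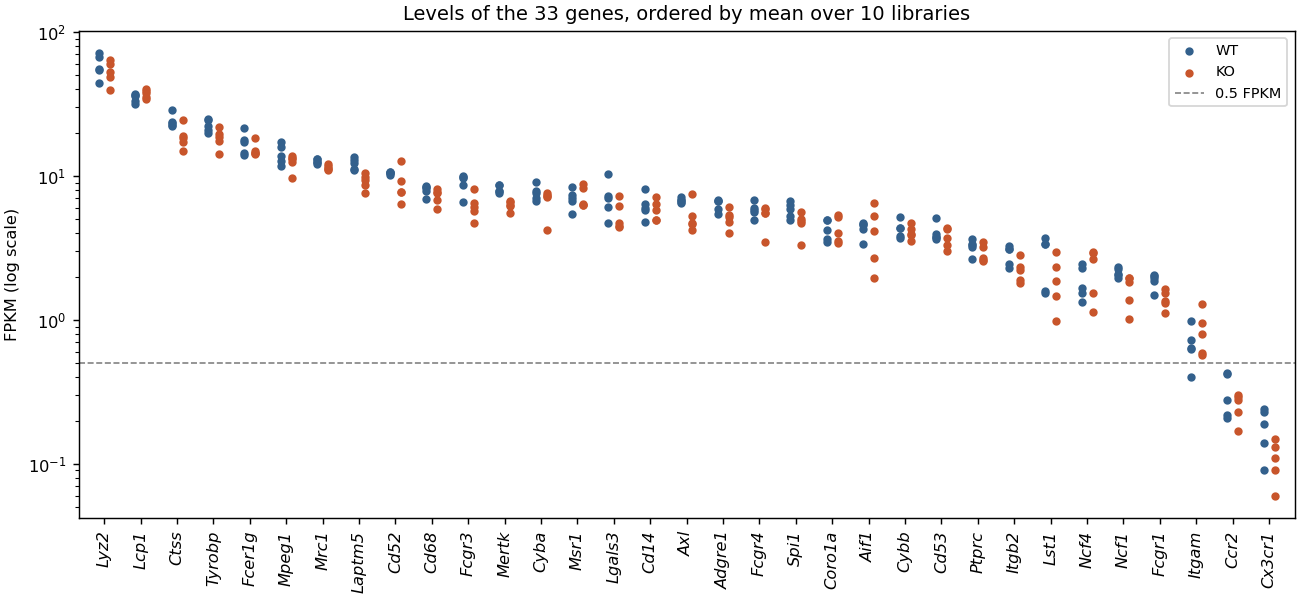
FPKM on a log axis for all 33 genes in 10 libraries, ordered by their mean, with 5 WT points (blue) and 5 KO points (orange) per gene. Lyz2 is highest at a mean of 55.9 FPKM, and Ccr2 and Cx3cr1 lie wholly below the dashed line at 0.5 FPKM.

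The TAM receptors are tyrosine kinases that recognise phosphatidylserine on dying cells through the bridging proteins Gas6 and protein S, and Mertk and Axl are the members made by macrophages. Mertk (chr2:128698956-128802894) stood at 7.61, 7.92, 7.91, 8.70 and 8.63 FPKM in WT 1 to WT 5 and at 5.57, 6.30, 6.69, 6.60 and 6.16 FPKM in KO 1 to KO 5. The lowest WT library was above the highest KO library, and the spread within each genotype was small. The WT mean of 8.15 ± 0.483 FPKM fell to 6.26 ± 0.444 FPKM in KO (SD, n = 5 per genotype), and limma put the change at -0.36 on the log2 scale with an SE of 0.07 (adjusted p = 0.0112). Mertk was the only one of the 31 genes whose call held under all 21 alternatives tried (limma adjusted p 0.00838 to 0.0467). Axl, which is also made by stellate and endothelial cells, stood at 6.80, 7.12, 6.84, 6.57 and 6.47 FPKM in WT and at 4.66, 4.22, 7.51, 5.31 and 4.72 FPKM in KO. All KO libraries but KO 3 lay below every WT library, and KO 3 was the highest of the 10. The log2 difference of Axl, -0.35 (SE 0.12), was close in size to that of Mertk but was not called (limma adjusted p = 0.101). Without KO 3 it was -0.48 and was called (limma adjusted p = 0.00739). Tyro3, the remaining TAM receptor gene, averaged 0.164 FPKM in WT and 0.208 FPKM in KO and was not tested.

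Partners of these receptors in the clearance of dying cells did not share one direction. Of 11 such genes (TAM ligands, other phosphatidylserine receptors and scavenger receptors), 10 were tested, 1 was lower, 1 higher and 8 were not called, with a median of -0.02. Cd36, a fatty acid and scavenger receptor also made by hepatocytes, rose from 84.1 ± 11.6 to 125.5 ± 12.2 FPKM (log2 difference 0.58, limma adjusted p = 0.00612). Lrp1, a large endocytic receptor of hepatocytes and macrophages, fell from 168.9 ± 22.2 to 133.8 ± 4.92 FPKM (log2 difference -0.33, limma adjusted p = 0.0298). The Lrp1 call was lost without any of 6 single libraries (WT 1, WT 3, KO 2, KO 3, KO 4 or KO 5, limma adjusted p up to 0.0642), and the Cd36 call held without each.

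Fc receptors bind the constant part of antibodies, and in the mouse Fcgr1, Fcgr3 and Fcgr4 signal through the gamma chain encoded by Fcer1g, while Tyrobp encodes DAP12, an adaptor for other activating receptors. All 5 differences were negative, with a median of -0.29, and 1 was called. Fcgr3 stood at 10.07, 8.63, 9.85, 9.74 and 6.64 FPKM in WT 1 to WT 5 and at 5.70, 6.50, 8.13, 4.69 and 6.06 FPKM in KO 1 to KO 5. The groups overlapped, since KO 3 was above WT 5, the lowest WT library. The WT mean of 8.99 ± 1.43 FPKM fell to 6.22 ± 1.26 FPKM in KO (SD, n = 5 per genotype), and limma put the change at -0.50 on the log2 scale with an SE of 0.14 (adjusted p = 0.0481). That p was close to the threshold, and the call held without WT 5 or without KO 3 and was lost without each of the other 8 libraries (limma adjusted p up to 0.102). It was also lost under each of 3 scalings (0.0604 to 0.0621) and with no filter on low genes (0.0944).

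The neighbours of Fcgr3 on chromosome 1 had negative differences that were not called. Fcgr4 (chr1:171018920-171029761) stood at 6.81, 6.02, 5.60, 5.77 and 4.92 FPKM in WT and at 5.57, 5.92, 5.56, 5.95 and 3.47 FPKM in KO. Only KO 5 left the WT range, and the change of -0.14 with an SE of 0.14 was not called (limma adjusted p = 0.567). Fcer1g (chr1:171229572-171234365) stood at 21.42, 17.71, 17.23, 14.37 and 13.96 FPKM in WT and at 14.36, 14.30, 18.26, 15.00 and 14.55 FPKM in KO, and every KO library lay within the WT range (log2 difference -0.13, limma adjusted p = 0.518). The difference between Fcgr3 and its neighbours was not tested. Fcgr1, the high-affinity IgG receptor, stood at 1.48, 2.02, 2.05, 1.87 and 1.95 FPKM in WT and at 1.32, 1.36, 1.54, 1.64 and 1.12 FPKM in KO. Of its KO libraries 3 lay below every WT library, and its difference of -0.33 (SE 0.11) was not called (limma adjusted p = 0.0838). Tyrobp stood at 25.10, 22.40, 24.33, 20.04 and 20.74 FPKM in WT and at 18.68, 17.59, 21.85, 19.63 and 14.28 FPKM in KO. Here 4 KO libraries lay below every WT library (log2 difference -0.29, SE 0.10, limma adjusted p = 0.11).

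Signalling genes downstream of Fc receptors had small negative differences. Of 16 genes in that list 15 were tested, 0 were called, 14 differences were negative and the median was -0.15. Fcgr2b, the inhibitory IgG receptor, which in liver is made mainly by sinusoidal endothelium, was at 49.2 ± 2.63 FPKM in WT and 44.4 ± 2.79 FPKM in KO. Its groups did not overlap, yet its difference of -0.15 was not called (limma adjusted p = 0.148). The B-cell and myeloid adaptor Blnk (-0.32) and the exchange factor Vav1 (-0.18) had the next smallest p and were not called (limma adjusted p = 0.248 and 0.276).

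The 10 genes of the macrophage surface and lysosome had 9 negative differences, a median of -0.15 and no call. Ctss, a cysteine protease that trims the invariant chain of MHC class II, stood at 28.68, 22.52, 23.86, 23.51 and 22.33 FPKM in WT and at 18.91, 17.35, 24.42, 18.50 and 14.94 FPKM in KO. All KO libraries but KO 3 lay below every WT library, and the log2 difference of -0.36 (SE 0.11) missed the threshold (limma adjusted p = 0.0715). It was called without KO 3 (-0.46, limma adjusted p = 0.0178) and with library weights (limma adjusted p = 0.0495). Adgre1, which encodes the F4/80 antigen of mouse macrophages, stood at 6.74, 6.86, 6.73, 5.43 and 5.91 FPKM in WT and at 5.33, 4.79, 6.05, 5.17 and 4.04 FPKM in KO. Again only KO 3 reached into the WT range (log2 difference -0.30, SE 0.10, limma adjusted p = 0.0977). Mrc1, the mannose receptor of macrophages and sinusoidal endothelium, stood at 13.06, 12.42, 13.13, 12.56 and 12.06 FPKM in WT and at 11.21, 12.04, 11.39, 11.07 and 11.65 FPKM in KO. The groups did not overlap, but WT 5 and KO 2 nearly met, and the difference of -0.13 (SE 0.05) was not called (limma adjusted p = 0.135).

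Lyz2, Cd68 and Mpeg1 overlapped between genotypes. Lyz2 stood at 71.15, 66.96, 54.91, 55.69 and 44.38 FPKM in WT and at 53.01, 49.12, 60.39, 64.11 and 39.60 FPKM in KO, with WT 5 below 4 of the 5 KO libraries. Its difference was -0.14 (SE 0.15, limma adjusted p = 0.616). Its near copy Lyz1 averaged 0.042 FPKM in WT and 0.052 FPKM in KO. Cd68, a lysosomal glycoprotein of phagocytes, ranged from 6.88 to 8.51 FPKM in WT (median 8.32) and from 5.88 to 8.08 FPKM in KO (median 7.66), with a difference of -0.14. Mpeg1, which encodes the pore-forming perforin-2, ranged from 11.82 to 17.34 FPKM in WT and from 9.64 to 13.79 FPKM in KO, with a difference of -0.18. Neither was called (limma adjusted p = 0.376 for Cd68 and 0.372 for Mpeg1).

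Cd14, the co-receptor for bacterial lipopolysaccharide, and Msr1, scavenger receptor A, were nearest to 0 in this role. Cd14 was at 6.23 ± 1.22 FPKM in WT and 5.85 ± 0.944 FPKM in KO (-0.08), and Msr1 was at 6.96 ± 1.08 and 7.22 ± 1.24 FPKM (0.05). The sign of each turned on 1 or more single libraries, with Cd14 at 0.02 without WT 4. The widest scatter was in Aif1 and Lgals3. Aif1, which encodes the actin-binding protein IBA1, stood at 5.24, 1.96, 4.14, 6.49 and 2.69 FPKM in KO, both above and below the WT range of 3.35 to 4.68 FPKM. Lgals3, which encodes galectin-3 and is made by bile duct cells too, ranged from 4.68 to 10.26 FPKM in WT and from 4.42 to 7.24 FPKM in KO (-0.34, SE 0.19, limma adjusted p = 0.299).

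Lysosomal genes at large showed calls in both directions. Of 18 tested lysosomal proteases and membrane proteins, 5 were lower, 1 was higher and 12 were not called, with a median of -0.07. Over all tested genes 4.56% were lower and 3.98% higher. The 5 were the cathepsin genes Ctsc (-0.46) and Ctsh (-0.26), Npc2 (-0.29), which carries cholesterol out of lysosomes, the protease gene Lgmn (-0.24) and the membrane glycoprotein gene Lamp1 (-0.17). Cathepsin L, encoded by Ctsl and abundant in hepatocytes, rose from 293.3 ± 28.7 to 375.8 ± 7.48 FPKM (log2 difference 0.36, limma adjusted p = 0.00652). The calls of Ctsl and Ctsh held without each single library. Those of Npc2, Ctsc, Lamp1 and Lgmn were lost without WT 1, without KO 2, without KO 5 and, for the last 3, without others (limma adjusted p up to 0.0776), and that of Lamp1 also after quantile normalization. In these bulk values each gene sums over hepatocytes and all other cells.

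**Figure D3:**
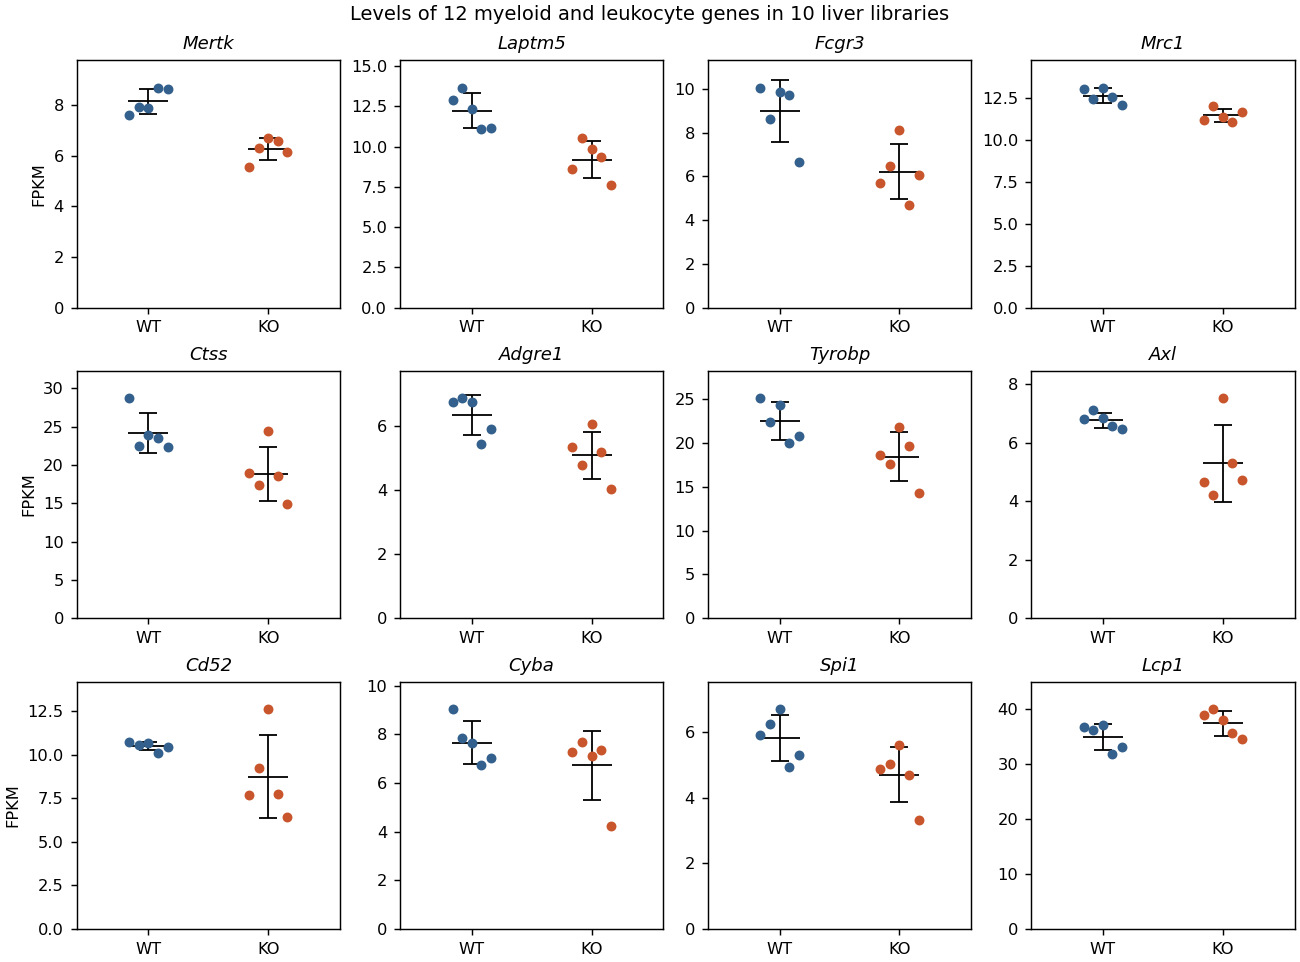
FPKM of 12 of the 33 genes in each library, with 5 points per genotype in order of replicate number, the mean as a line and ± 1 SD as bars, on axes from 0. Genotypes do not overlap for Mertk, Laptm5 and Mrc1, KO 3 is the highest KO library for Mertk, Fcgr3, Ctss, Adgre1, Tyrobp, Axl, Cd52 and Spi1, and KO 5 is the lowest KO library for Laptm5, Ctss, Adgre1, Tyrobp, Cd52, Cyba, Spi1 and Lcp1.

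The phagocyte NADPH oxidase joins the membrane subunits encoded by Cybb and Cyba with the cytosolic organisers encoded by Ncf1 and Ncf4. None of the 4 genes was called, 3 differences were negative, and the median was -0.13. Ncf1 stood at 2.33, 2.04, 1.95, 2.27 and 2.10 FPKM in WT and at 1.38, 1.02, 1.95, 1.83 and 1.96 FPKM in KO. KO 1, KO 2 and KO 4 lay below every WT library and the other 2 KO libraries at the lower edge of the WT range (-0.33, SE 0.14, limma adjusted p = 0.155). Ncf4 went the other way, at 1.67, 1.54, 2.45, 1.33 and 2.29 FPKM in WT and at 1.54, 1.14, 2.98, 2.90 and 2.67 FPKM in KO. Its KO libraries fell into 3 above the WT range, 1 within it and 1 below it, and the difference of 0.18 had an SE of 0.22 (limma adjusted p = 0.668). Cyba stood at 9.04, 7.86, 7.64, 6.73 and 7.04 FPKM in WT and at 7.29, 7.68, 7.11, 7.37 and 4.23 FPKM in KO, where KO 5 alone left the WT range (-0.19, limma adjusted p = 0.447). Cybb, the catalytic subunit gene, was at 4.31 ± 0.582 FPKM in WT and 4.08 ± 0.459 FPKM in KO (-0.07, limma adjusted p = 0.733). Of 8 other oxidase partners and NOX-family genes, 7 were tested and 0 were called. Nox4, an oxidase of parenchymal and stellate cells, had the smallest p among them. It was at 3.77 ± 1.37 FPKM in WT and 5.35 ± 1.17 FPKM in KO (0.48, limma adjusted p = 0.15). Without WT 3 its difference was 0.65 and was called (limma adjusted p = 0.0205). Duox1 was listed at 0 in all 10 libraries.

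Adhesion and pan-leukocyte genes held 10 members, of which 7 differences were negative and 1 was called, with a median of -0.21. Laptm5 (chr4:130913125-130936141) stood at 12.87, 13.66, 12.36, 11.09 and 11.16 FPKM in WT 1 to WT 5 and at 8.61, 10.52, 9.87, 9.35 and 7.60 FPKM in KO 1 to KO 5. Every KO library lay below every WT library. The WT mean of 12.2 ± 1.11 FPKM fell to 9.19 ± 1.13 FPKM in KO (SD, n = 5 per genotype), and limma put the change at -0.40 on the log2 scale with an SE of 0.09 (adjusted p = 0.0239). The call was lost without WT 1 (limma adjusted p = 0.0546), without WT 2 (0.0508) and without KO 1 (0.0509), with differences that stayed between -0.45 and -0.33 over all 10 omissions. Cd52, a small anchored glycoprotein of lymphocytes and myeloid cells, stood at 10.74, 10.56, 10.67, 10.12 and 10.46 FPKM in WT and at 7.70, 9.25, 12.64, 7.75 and 6.41 FPKM in KO. WT was tight, 4 KO libraries lay below it and KO 3 above it, and the difference of -0.29 was not called (limma adjusted p = 0.229). Without KO 3 it was -0.42 and was called (limma adjusted p = 0.0243).

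Ptprc, which encodes the CD45 phosphatase found on all nucleated blood cells, stood at 3.65, 3.19, 3.33, 3.36 and 2.66 FPKM in WT and at 2.71, 2.56, 3.50, 3.21 and 2.61 FPKM in KO. The groups overlapped, and the difference of -0.13 (SE 0.10) was not called (limma adjusted p = 0.479). Spi1 stood at 5.91, 6.26, 6.71, 4.94 and 5.30 FPKM in WT and at 4.89, 5.04, 5.60, 4.69 and 3.32 FPKM in KO. Its KO libraries KO 1, KO 4 and KO 5 lay below the WT range (-0.29, SE 0.13, limma adjusted p = 0.178). Itgb2, the beta chain shared by leukocyte integrins, was at 2.85 ± 0.437 FPKM in WT and 2.22 ± 0.416 FPKM in KO (-0.30, limma adjusted p = 0.163), while Itgam, the alpha chain of the myeloid integrin Mac-1, was at 0.676 ± 0.209 and 0.842 ± 0.297 FPKM (0.18, limma adjusted p = 0.557). The 2 chains thus had differences of opposite sign, neither of them called. Lst1, a leukocyte membrane protein gene, ranged from 1.53 to 3.72 FPKM in WT and from 0.99 to 2.97 FPKM in KO, with the widest SE of the list at 0.27 (-0.40, limma adjusted p = 0.413).

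Lcp1 and Coro1a, which encode the actin regulators L-plastin and coronin-1A, did not have negative differences. Lcp1 stood at 36.75, 36.22, 37.22, 31.85 and 33.24 FPKM in WT and at 38.99, 40.07, 37.98, 35.63 and 34.52 FPKM in KO. The upper 3 KO libraries were above every WT library (0.09, SE 0.06, limma adjusted p = 0.385). Coro1a was at 4.26 ± 0.685 FPKM in WT and 4.31 ± 0.929 FPKM in KO (0.01), and its sign turned without single libraries. The tetraspanin gene Cd53 was at 4.05 ± 0.591 and 3.75 ± 0.586 FPKM (-0.10, limma adjusted p = 0.638). Of 15 further integrin and leukocyte actin genes 13 were tested, and all 13 differences were negative with a median of -0.20. Of these Arpc1b, a subunit of the actin-nucleating Arp2/3 complex, was called lower (-0.35, limma adjusted p = 0.0426), a call lost without any single library other than WT 4 (limma adjusted p up to 0.0975). Talin-1, encoded by Tln1 (-0.20), and the integrin chain gene Itgb7 (-0.29) were not called (limma adjusted p = 0.104 and 0.164).

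Chemokine receptors of monocytes and resident phagocytes were near the lower limit of the table. Ccr2, which brings monocytes out of bone marrow, stood at 0.43, 0.42, 0.28, 0.22 and 0.21 FPKM in WT and at 0.17, 0.23, 0.28, 0.29 and 0.30 FPKM in KO. Cx3cr1 stood at 0.23, 0.19, 0.14, 0.09 and 0.24 FPKM in WT and at 0.13, 0.09, 0.06, 0.11 and 0.15 FPKM in KO. The groups overlapped for both, and in a fit with no filter on low genes neither was called (limma adjusted p = 0.669 for Ccr2 and 0.364 for Cx3cr1). A difference could not be resolved at these levels. Among 5 ligand genes of Ccr2 and Cx3cr1, Ccl2 alone passed the filter, at 0.592 ± 0.381 and 0.676 ± 0.244 FPKM (0.14, limma adjusted p = 0.749).

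Many of the 31 genes were extreme in the same libraries. KO 5 was the lowest of the 10 libraries for 15 of the 31 genes, while it was the lowest for 11.6% of all tested genes. WT 1 was the highest for 15, while it was the highest for 9.67% of all tested genes. Within KO, KO 3 was the highest library for 17 of the 31 genes and KO 5 the lowest for 17. Averaged over the 31 genes, the deviation from the 10-library mean on the log2 scale was 0.24, 0.14, 0.12, 0.01 and -0.04 in WT 1 to WT 5 and -0.13, -0.16, 0.13, -0.01 and -0.30 in KO 1 to KO 5. KO 3 thus stood at the level of WT 2 and WT 3, and WT 4 and WT 5 beside KO 4, so the average level of the list overlapped between genotypes. The number of genes called lower was 6 without KO 3, which added Ctss, Cd52 and Axl, and 1 (Mertk) without WT 1, without WT 2 or without KO 1. Without WT 1 and KO 5 together, an omission chosen after the data were seen that by its construction draws the genotypes closer, the median over the list was -0.06 and Mertk was the remaining call.

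Markers of Kupffer cells followed a like course. Their mean deviation was 0.17, 0.20, 0.13, 0.10 and -0.004 in WT 1 to WT 5 and -0.11, -0.18, 0.04, 0.01 and -0.36 in KO 1 to KO 5. Of 15 Kupffer identity genes, none of them among the 33, 12 had negative differences, and the median was -0.26. Their summed level was 423.8 to 479.9 FPKM in WT and 323.2 to 417.2 FPKM in KO. Of the 15, 6 were lower and 9 were not called, while 4.56% of all tested genes were called lower. The 6 included the C-type lectin gene Clec4f (-0.51), the complement genes C1qa (-0.46) and Vsig4 (-0.43), and the transcription regulator Id3 (-0.69). None of these lost its call without a single library (limma adjusted p up to 0.0499). Without WT 1 and KO 5 together, Clec4f, C1qa and Vsig4 were not called (limma adjusted p = 0.0504, 0.0504 and 0.075). The receptor genes Csf1r (-0.37) and Folr2 (-0.58) were also lower, with calls lost without WT 1, WT 2, WT 3, KO 2 or KO 5 and, for each, 1 or 2 others (limma adjusted p up to 0.082). Their part in the differences of Mertk, Laptm5 and Fcgr3 was not tested.

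No marker of other leukocytes was called, and many lay under the filter. Of 10 monocyte markers 7 were tested, 4 of them negative, with a median of -0.01. The sum of the monocyte markers was 13.69 to 18.35 FPKM in WT and 11.75 to 20.1 FPKM in KO. Among them Plac8 had the smallest p (-0.26, limma adjusted p = 0.141). It was at 5.49 ± 0.57 FPKM in WT and 4.52 ± 0.61 FPKM in KO. Of 12 neutrophil markers 4 were tested, all with negative differences and a median of -0.22, and their sums were 5.63 to 12.18 and 4.82 to 9.67 FPKM. The mean deviation of these 4 genes was lowest in KO 5 (-0.52) and KO 1 (-0.45) and highest in WT 2 (0.50) and KO 2 (0.30). Of 11 T and NK cell markers 4 were tested, 3 of them negative, with a median of -0.13 and sums of 4.48 to 7.18 and 3.56 to 6.73 FPKM. Of 9 dendritic cell markers 2 were tested, both negative, with a median of -0.08 and sums of 3.47 to 4.59 and 3.12 to 3.95 FPKM. In each of these lists the ranges of the genotypes overlapped, and the part of these cells in the members' differences was not tested. Among parenchymal and vascular lists, 12 liver endothelial genes had 0 calls and a median of -0.03, with sums of 199.8 to 207.0 FPKM in WT and 176.5 to 203.8 FPKM in KO. The summed level of 10 hepatocyte genes was higher in every KO library (70420 to 75730 FPKM) than in every WT library (64680 to 69850 FPKM). Of the 10 differences, however, 4 were negative, and the median was 0.09. Their mean deviation overlapped between genotypes, with WT 2 at 0.05 and KO 3 at 0.01. The part of the summed level in the lower values of the myeloid genes was not tested.

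**Figure D4:**
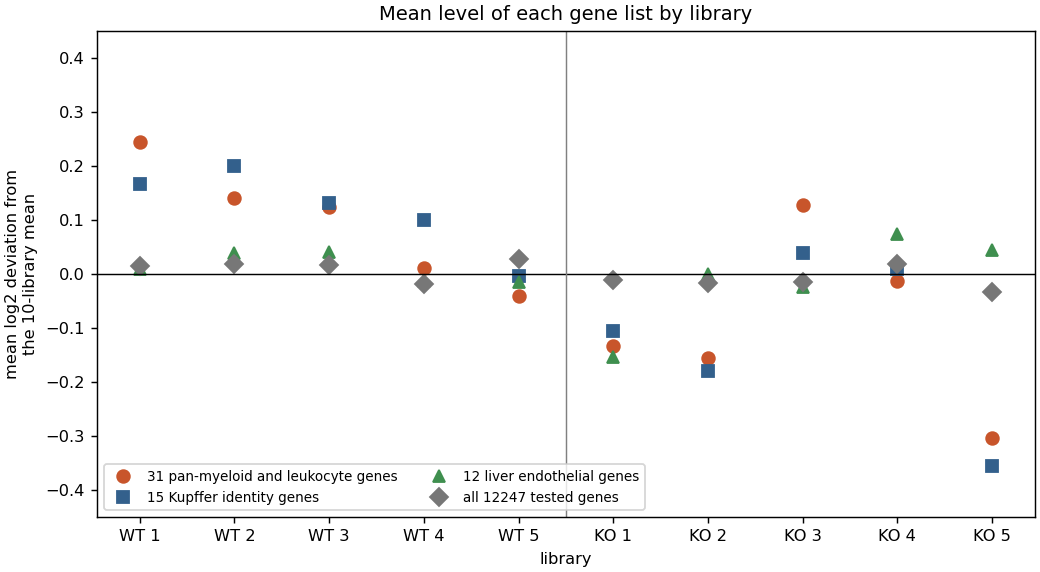
Mean log2 deviation from the 10-library mean for the 31 tested pan-myeloid and leukocyte genes (circles), 15 Kupffer identity genes (squares), 12 liver endothelial genes (triangles) and all 12247 tested genes (diamonds) in each library. The circles run from 0.24 in WT 1 to -0.30 in KO 5, with KO 3 at 0.13, while all tested genes stay between -0.03 and 0.03.

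Factors that direct myeloid genes were followed in a list of 13 genes without Spi1, of which 12 were tested, with a median of -0.07. Of the 12, 0 were higher and, beside 4.56% of all tested genes, 2 were lower. These were Id3 (from 23.3 ± 5.73 to 14.0 ± 1.68 FPKM, limma adjusted p = 0.0193), counted with the Kupffer genes too, and Ikzf1, which encodes the lymphoid and myeloid regulator Ikaros (from 1.10 ± 0.193 to 0.676 ± 0.151 FPKM, -0.45, limma adjusted p = 0.0482). The groups did not overlap for either. The Ikzf1 call was lost without any single library other than WT 3 (limma adjusted p up to 0.102). It was also lost after quantile normalization (limma adjusted p = 0.0515), with a pseudocount of 0.1 (0.0524), with no filter (0.0757) and with a block for the replicate number (0.0797). Cebpa, the factor shared by hepatocytes and granulocytes, was not called (-0.14, limma adjusted p = 0.307).

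The called genes lie apart in the genome. Mertk, Laptm5 and Fcgr3 lie on chromosomes 2, 4 and 1, and Etnppl lies on chromosome 3. The members on chromosome 3 are Cd53, 23.8 Mb from Etnppl, Fcgr1 at 34.3 Mb and Ctss at 35.1 Mb, and none of them was called. Exons of 6 members (Ncf1, Itgam, Cd52, Coro1a, Lcp1 and Cx3cr1) overlap those of another annotated gene. Whether reads were counted by strand is not known here, so reads of such pairs may be shared. No called member is among these 6.

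Relative sequencing depth, estimated from the size of the smallest increments of FPKM, was 0.899 in KO 1 to 1.11 in WT 3, with means of 1.05 in WT and 0.957 in KO. KO 5, the lowest library of the list, was at 0.909, close to KO 1 and to KO 4 at 0.905. These libraries lay below every WT library (0.998 to 1.11), as KO 3 did narrowly at 0.997, while KO 2 was at 1.07. The part of depth in these differences was not tested.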

How the data were processed

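The authors deposited FPKM per gene for 10 libraries. Per the submitters' processing notes, the build was mm10 and the tools were DESeq2, DESeq, RSEM, STAR and R 4.0.2, with no role stated. The annotation release and strand setting are not given in the sources used here. Because FPKM divides by the library total, a rise of abundant transcripts lowers all others. Read totals were not analysed here. Relative depth came from 372 low genes, of whose values above 0 96.1% lay within 0.15 of a whole number of steps.

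Deposited values entered unscaled on the log2(FPKM + 0.5) scale, which understates differences of low genes. The test was that of limma 3.58.1 under R 4.3.3, on genes averaging 0.5 FPKM or more across the 10 libraries (trended robust eBayes, genotype as the only term, two-sided). Benjamini-Hochberg adjustment covered all 12247 genes, and calls were made at an adjusted p under 0.05. A simulated set of 12146 genes held 100 genes with a log2 shift of size 0.5 and 100 with a shift of size 1. Of these, 62% and 91% were called, and unshifted genes made up 5.56% of the simulated calls. No smaller shift was simulated, so detection at the size of the members' median (-0.18) is unknown. Many members were extreme in the same real libraries, and the simulated rate was not checked against such shared variation. It therefore does not give the share of false calls in these data. The rule for the genes named was all 33 members, Etnppl, near copies of members, and in each list the 3 genes with the smallest p with all called genes where 6 or fewer were called. Some genes that this rule gives are not reported. The members and lists were chosen with earlier results of these data known, so neither is independent of them. Positions come from GENCODE M21 on GRCm38, the assembly of mm10. Alternatives were other pseudocounts (0.1 and 1), no filter or one at 5 FPKM, 3 scalings, weights per library, a non-robust fit, a block for the replicate number and each library left out. One further alternative, without WT 1 and KO 5 together, was chosen after seeing the data.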

Additional observations from a re-analysis of the deposited data

Results flagged for a closer look

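Libraries that stood apart from the other 4 of their genotype by Dixon's 95% criterion for 5 values were found in 14 of 178 groups examined, where chance gives about 1 in 20, or 8.9. In WT 1, Ctss was at 28.68 FPKM against 22.33 to 23.86 FPKM in the other WT libraries, and Cd53 was at 5.09 FPKM against 3.68 to 3.95 FPKM. In WT 4, Aif1 was at 3.35 FPKM against 4.31 to 4.68 FPKM. In KO 5, the Fc receptor gene Fcgr4 was at 3.47 FPKM against 5.56 to 5.95 FPKM in the other KO libraries and the oxidase gene Cyba was at 4.23 FPKM against 7.11 to 7.68 FPKM. In KO 3, Fcer1g was at 18.26 FPKM against 14.3 to 15.0 FPKM.

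The other 8 values belong to genes outside the 33. The T-cell gene Cd3e was at 0.96 FPKM in KO 3 (others 0.36 to 0.52). In WT 2 the monocyte gene Chil3 was at 1.31 FPKM (others 0.24 to 0.53) and the neutrophil gene Retnlg at 1.46 FPKM (others 0.85 to 0.99). Ctsh was at 225.1 FPKM in WT 5 (others 194.0 to 202.28) and Ctsl at 362.7 FPKM in KO 2 (others 376.65 to 381.01). Nox4 was at 6.16 FPKM in WT 3 (others 2.79 to 3.56), Npc2 at 11.14 FPKM in KO 5 (others 12.71 to 13.17) and Tyro3 at 0.36 FPKM in WT 5 (others 0.1 to 0.14).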

How the results depend on the processing

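Over all tested genes, 488 were called higher and 558 lower, with limma. Quantile normalization gave 613 and 477, scaling by median of ratios 577 and 497, and scaling by the upper quartile 542 and 522, so the larger direction depended on the scaling, while no member changed direction under any of the 3. The counts were 294 and 370 with no filter on low genes and 153 and 176 without WT 1 and KO 5 together. Without single libraries, which leaves fewer samples, they were 258 to 454 higher and 316 to 541 lower, and the number of members called lower was 1 to 6 (main value 3), with 1 without WT 1 and KO 5 together. The median over members kept its sign under all alternatives, from -0.24 to -0.06, and no member was called higher under any.

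Some values changed sign, among them Cyba (main value -0.1943), Aif1 (-0.1578), Fcgr4 (-0.1417) and Lyz2 (-0.1378). Coro1a was at -0.0041 with library weights and -0.0693 to 0.0782 without single libraries. Without WT 1 and KO 5 together, Lyz2 was at 0.037, Fcgr4 at 0.0431, Cybb at 0.0429, Cyba at 0.0102 and Cd53 at 0.0399. Without single libraries, Cd14 ranged from -0.1606 to 0.0166, Msr1 from -0.0335 to 0.1133, Aif1 from -0.3335 to 0.0432, Cd3e from -0.1865 to 0.0044, Cd79a from -0.0187 to 0.1689 and Zbtb46 from -0.1267 to 0.0048. The cause was not tested.

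Deviations of same-numbered WT and KO libraries correlated at -0.207 to 0.208 across genes, with a median of 0.09. Other pairs of WT and KO libraries correlated at -0.179 to 0.25, with a median of -0.01. Of the WT libraries, 2 of 5 matched their own number best. With 5 same-numbered pairs these values cannot decide whether the replicate numbers pair the libraries. With the replicate number as a block, 230 genes were higher and 321 lower, and 2 members, Mertk and Laptm5, were lower (Fcgr3 limma adjusted p = 0.0755). Of the 20 other named genes that were called, 5 (Etnppl, Cd36, Ctsl, Id3 and Cps1) were called under every alternative. Read totals were not analysed, so counting error of genes under 1 FPKM, such as Itgam, Ccr2 and Cx3cr1, is unknown.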

Other observations

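Other cells of the liver that share macrophage or leukocyte transcripts gave few calls. Of 7 B and plasma cell markers 5 were tested and 0 called. Of the 5 differences 2 were negative, those of Igkc and Jchain, and the median was 0.02. The sum of the markers was 24.57 to 49.04 FPKM in WT and 16.81 to 27.36 FPKM in KO. Most of that sum was the immunoglobulin kappa gene Igkc, at 28.4 ± 10.2 FPKM in WT and 18.3 ± 3.48 FPKM in KO (SD, n = 5 each), a log2 difference of -0.58 that was not called (limma adjusted p = 0.139), and the plasma cell gene Jchain differed by -0.48 (limma adjusted p = 0.124). In T and NK cells the granule gene Nkg7 had the smallest p, at 1.27 ± 0.106 FPKM in WT and 0.776 ± 0.45 FPKM in KO (-0.53, limma adjusted p = 0.116).

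Of 10 stellate cell genes 1 was lower, Reln (from 16.4 ± 1.27 to 13.6 ± 1.09 FPKM, limma adjusted p = 0.0466), with a list median of -0.14. The Reln call was lost without any of 9 single libraries (limma adjusted p up to 0.105). It was also lost after scaling by median of ratios (limma adjusted p = 0.0564), quantile normalization (0.0572), with the replicate number as a block (0.0634) and with no filter (0.0804). Of 6 cholangiocyte genes 4 were tested and 1 was lower, the progenitor and duct factor Sox9 (from 0.964 ± 0.152 to 0.504 ± 0.208 FPKM, limma adjusted p = 0.0349), a call lost without any of 8 single libraries (limma adjusted p up to 0.0777). Among 10 hepatocyte genes 1 was higher, the urea cycle gene Cps1 (from 712.3 ± 92.7 to 1057 ± 78.8 FPKM, limma adjusted p = 0.00338), and 0 were lower.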
